A study of Mus musculus with 3 samples.

Results

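The 40 cell cycle genes described here are 40 of 55536 annotated mouse genes. They were chosen by their symbols in the GENCODE M21 annotation and not by their values, though with earlier results of these data known. They fall into 16 S-phase genes, whose products license and carry out DNA replication, 19 mitotic genes, whose products build the spindle, guard its checkpoint or drive entry to and exit from mitosis, and 5 D-type cyclin and inhibitor genes, which open or close the cycle. Their RNA was measured in the cytosolic fraction of primary bone marrow-derived macrophages of the mouse strain C57BL/6J, that is, macrophages grown from marrow in culture. All cells had received lipid A, the lipid anchor of bacterial lipopolysaccharide and a Toll-like receptor 4 ligand, at 100 ng/ml for 50 min, and RNA from 3 biological replicates of this 1 group was depleted of ribosomal RNA and sequenced (libraries 1, 2 and 3). The labels name the same donor for all libraries and do not say whether the replicates came from separate animals or cultures. No unstimulated sample was analysed here, so no level below can be read as a response to lipid A. The libraries held 33044910, 36769402 and 36522216 expected counts.

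The cell cycle is driven by cyclins that bind and activate cyclin-dependent kinases in turn. D-type cyclins with Cdk4 and Cdk6 inactivate the retinoblastoma protein and free E2F factors, which switch on replication genes, while a later programme bound by the DREAM, B-Myb and FoxM1 complexes switches on mitotic genes. Macrophages grow from marrow progenitors under colony-stimulating factor 1, which drives their division, and the inhibitor p21, the product of Cdkn1a, is well known in maturing and activated macrophages.

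All 10 macrophage markers examined, of which Lyz2, Cd68 and Cd14 were the highest, had at least 1 TPM in all libraries, with a median of 137 TPM (a share of the library's transcripts, corrected for their length). Of 33 markers of other marrow and stromal cells, 3 reached 1 TPM in each library, 30 stayed under it, and 6 of these had no count at all. The 3 were Pf4 at 223 TPM, Cd4 at 26.7 TPM and Ngp at 4.62 TPM, a platelet factor, a T cell co-receptor and a neutrophil granule protein. Other listed markers of those cell types were low. Itga2b had 0.110 TPM, Cd3e 0, Cd3g 0.0233, Cd8a 0.00333, Camp 0.240 and Retnlg 0.0133 TPM. The summed TPM of all 33 markers was 293, 240 and 240 in libraries 1, 2 and 3. Pf4 alone gave 243, 212 and 213 of it, so the sum is mostly 1 gene and does not measure the share of other cells. Because the libraries are bulk RNA, a small share of cycling cells and a low RNA content in every cell cannot be told apart in any value below.

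Of the 40 cell cycle genes, 31 (77.5%) reached 1 TPM in each library, against 41.4% of protein-coding genes, and 2 stayed under 1 TPM in each. Their median level was 2.73 ± 0.793 TPM (SD, n = 3 libraries), against a median of 9.39 TPM for the 9128 protein-coding genes detected, that is, with at least 1 TPM in all libraries. Most cell cycle genes were thus detected, and most lay below the median detected gene. Their order by class was the same in all libraries, with the D-type cyclin and inhibitor genes highest, the S-phase genes next and the mitotic genes lowest. The class medians were 9.15 ± 3.04, 4.24 ± 0.711 and 1.89 ± 0.567 TPM in that order (SD, n = 3). TPM in library 2 was lower for genes in general: over the 9570 genes that reached 1 TPM in all libraries the median difference was 0.40 between library 3 and library 2 and 0.48 between library 1 and library 2 on the log2 scale. A low TPM in library 2 therefore has to be read against that shift, and the comparison between libraries further on uses counts.

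**Figure D1:**
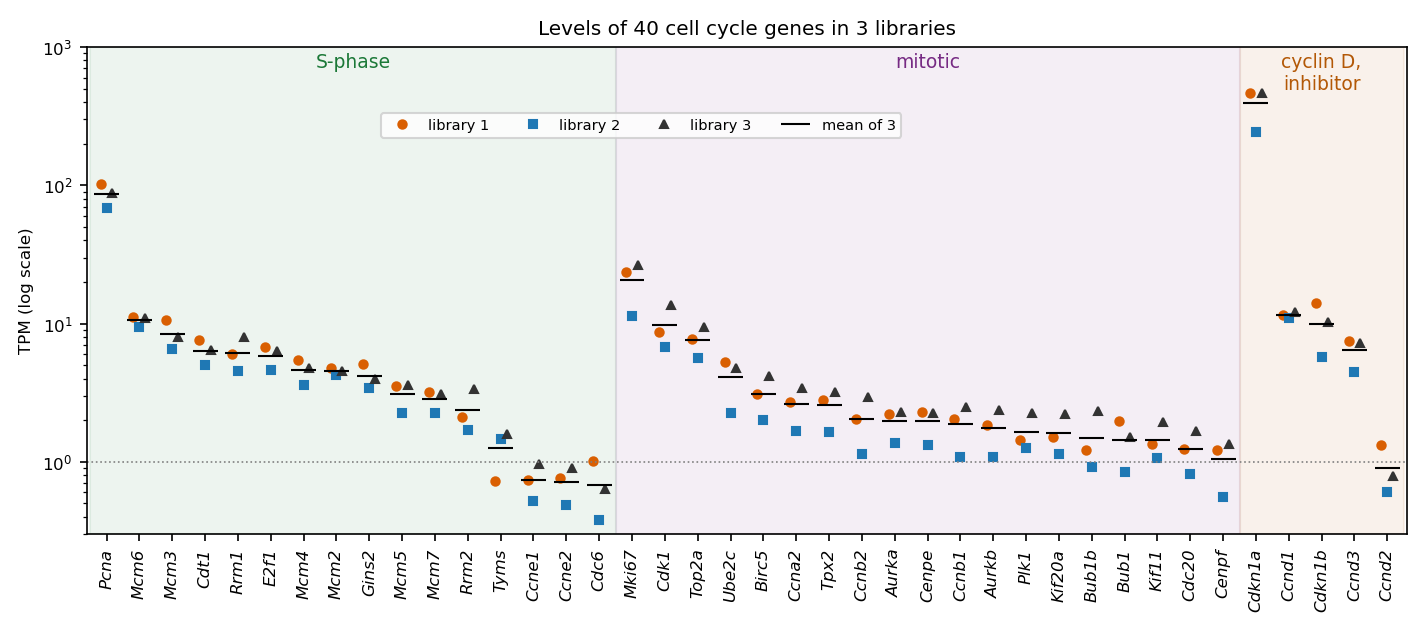
TPM of each cell cycle gene in the 3 libraries on a logarithmic axis, 1 point per library, with genes grouped as S-phase, mitotic and D-type cyclin or inhibitor. Cdkn1a stands alone at 242 to 467 TPM, Pcna leads the S-phase genes at 68.8 to 102 TPM, Mki67 leads the mitotic genes at 11.3 to 26.7 TPM, and every other gene lies at or below 14.0 TPM. Black bars are means of the 3 libraries, and the dotted line marks 1 TPM.

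The S-phase and mitotic classes differ in the promoter letters that are known to bind their regulators, and sequences of 8 members are printed because the letters occur at different rates in the 2 classes. The cell cycle genes homology region (TTTGAA or TTCGAA) is bound by the DREAM and B-Myb complexes, CCAAT is bound by NF-Y, and E2F factors bind TTTCGCGC, TTTGGCGC, TTTCCCGC and TTTGCCGC, counted here as 1 motif. RefSeq windows of 300 bases (build GRCm38.p6), from 250 before to 50 after the annotated start, were matched by symbol for 31 of the 40 genes and searched on both strands. The genes named without a window are Aurkb, Ccna2, Ccnd1, Ccnd2, Ccne2, Gins2, Kif20a, Mcm4 and Tpx2. The windows below run 5′ to 3′ on the gene's strand, with every match to a motif, on either strand, in capitals. On the opposite strand CCAAT reads ATTGG and the homology region reads TTCAAA.

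The mitotic windows shown are those of Mki67 at chr7:135716330-135716629 (minus strand), Ccnb2 at chr9:70421505-70421804 (minus strand), Cdk1 at chr10:69352863-69353162 (minus strand), Plk1 at chr7:122159185-122159484 (plus strand) and Cdc20 at chr4:118437294-118437593 (minus strand). They show the homology region together with CCAAT.
Mki67: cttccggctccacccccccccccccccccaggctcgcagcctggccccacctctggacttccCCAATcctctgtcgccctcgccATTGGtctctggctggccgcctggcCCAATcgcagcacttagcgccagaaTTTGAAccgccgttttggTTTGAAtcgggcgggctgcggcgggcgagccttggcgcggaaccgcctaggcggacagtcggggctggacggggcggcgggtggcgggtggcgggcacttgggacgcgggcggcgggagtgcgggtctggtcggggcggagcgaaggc
Ccnb2: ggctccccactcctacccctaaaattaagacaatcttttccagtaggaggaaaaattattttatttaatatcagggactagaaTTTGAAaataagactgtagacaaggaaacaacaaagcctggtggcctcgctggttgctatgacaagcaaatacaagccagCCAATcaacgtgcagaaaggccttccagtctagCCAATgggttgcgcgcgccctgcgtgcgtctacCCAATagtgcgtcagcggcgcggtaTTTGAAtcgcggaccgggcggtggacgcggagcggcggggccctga
Cdk1: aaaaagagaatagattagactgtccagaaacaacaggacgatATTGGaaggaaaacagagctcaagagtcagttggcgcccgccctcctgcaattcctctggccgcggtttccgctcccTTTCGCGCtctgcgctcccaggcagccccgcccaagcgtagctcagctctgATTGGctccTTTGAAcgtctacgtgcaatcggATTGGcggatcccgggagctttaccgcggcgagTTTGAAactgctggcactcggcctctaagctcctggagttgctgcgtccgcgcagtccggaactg
Plk1: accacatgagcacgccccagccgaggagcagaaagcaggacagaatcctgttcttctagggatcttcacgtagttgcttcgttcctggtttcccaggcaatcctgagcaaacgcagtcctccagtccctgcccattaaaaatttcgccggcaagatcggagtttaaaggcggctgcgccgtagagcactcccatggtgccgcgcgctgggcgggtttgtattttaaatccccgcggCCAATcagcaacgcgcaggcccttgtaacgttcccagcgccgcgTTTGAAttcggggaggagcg
Cdc20: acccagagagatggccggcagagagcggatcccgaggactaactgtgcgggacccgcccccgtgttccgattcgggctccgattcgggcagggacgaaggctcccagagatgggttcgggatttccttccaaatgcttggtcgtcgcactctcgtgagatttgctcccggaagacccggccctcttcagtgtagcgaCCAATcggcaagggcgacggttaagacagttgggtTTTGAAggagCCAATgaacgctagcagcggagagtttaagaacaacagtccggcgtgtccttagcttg

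The S-phase windows shown are those of Mcm3 at chr1:20820263-20820562 (minus strand), Mcm5 at chr8:75109259-75109558 (plus strand) and Mcm6 at chr1:128359656-128359955 (minus strand). They show E2F letters without a homology region.
Mcm3: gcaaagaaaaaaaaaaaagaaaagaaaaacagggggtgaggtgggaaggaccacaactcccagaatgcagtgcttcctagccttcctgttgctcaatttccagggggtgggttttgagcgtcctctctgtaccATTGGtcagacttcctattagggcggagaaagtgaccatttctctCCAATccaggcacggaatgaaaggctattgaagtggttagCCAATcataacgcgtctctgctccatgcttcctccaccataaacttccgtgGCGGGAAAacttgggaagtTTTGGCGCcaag
Mcm5: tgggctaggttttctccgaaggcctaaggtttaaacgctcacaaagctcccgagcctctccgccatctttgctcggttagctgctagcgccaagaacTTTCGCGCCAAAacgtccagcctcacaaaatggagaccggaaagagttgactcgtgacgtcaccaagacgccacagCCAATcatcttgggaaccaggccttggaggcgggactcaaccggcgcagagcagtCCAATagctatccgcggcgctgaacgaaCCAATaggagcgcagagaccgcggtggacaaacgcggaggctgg
Mcm6: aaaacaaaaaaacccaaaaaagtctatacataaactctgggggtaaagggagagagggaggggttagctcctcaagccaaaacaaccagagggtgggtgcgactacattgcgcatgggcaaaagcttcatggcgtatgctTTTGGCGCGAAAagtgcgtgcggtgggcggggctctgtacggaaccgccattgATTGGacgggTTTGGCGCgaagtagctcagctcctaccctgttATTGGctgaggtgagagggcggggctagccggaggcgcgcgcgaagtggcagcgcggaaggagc

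In Ccnb2 a homology region begins 4 bases after the start, and 3 CCAAT boxes lie at 87, 54 and 21 bases before it. Plk1 carries its homology region 30 bases after the start with a CCAAT box 14 bases before it, and Cdc20 carries its own 18 bases before the start, between CCAAT boxes at 53 and 8 bases before it. Cdk1 holds 2 homology regions, 3 CCAAT boxes and, 131 bases before the start, the E2F letters TTTCGCGC. Mcm5 and Mcm6 each hold an overlapping pair of E2F matches, 1 on each strand, which begin 153 and 149 bases before the start of Mcm5 and 110 and 106 bases before the start of Mcm6.

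The homology region was found in 2 of 13 S-phase windows (15.4%), 12 of 15 mitotic windows (80%) and 13.2% of the 7319 windows of detected protein-coding genes. CCAAT was found in 8 of 13 S-phase windows (61.5%), 14 of 15 mitotic windows (93.3%) and 38.5% of the detected genes' windows. The order was the other way for E2F letters, with 6 of 13 S-phase windows (46.2%), 1 of 15 mitotic windows (6.67%, Cdk1) and 4.37% of the detected genes' windows. The homology region and CCAAT occurred together in 12 of 15 mitotic windows (80%) and in 5.47% of the detected genes' windows. The same order held in listed genes outside the 40, since the homology region was in 6 of 30 windows of other S-phase genes (20.0%) and 22 of 32 windows of other mitotic genes (68.8%). E2F letters were in 20.0% of these other S-phase windows and 6.25% of these other mitotic windows. Of the 88 matches in the members' windows, 1 shared a base with a match to another motif. A match is a description of letters and not evidence of binding, and 28 of the 31 windows start within 100 bases of the most abundant transcript measured here.

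**Figure D2:**
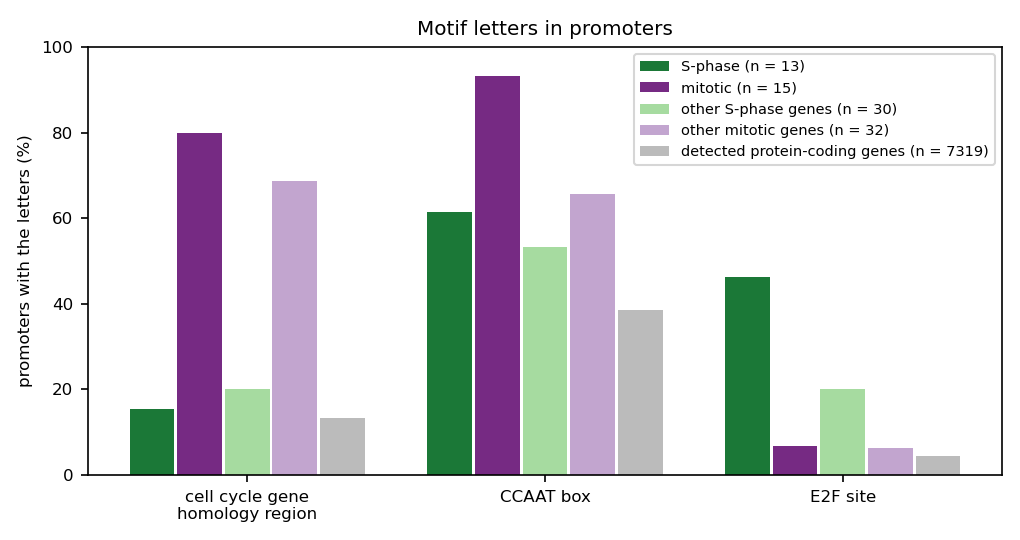
Percent of RefSeq promoter windows (250 bases before to 50 after the start) that hold each motif on either strand, for the cell cycle classes, listed genes outside them and detected protein-coding genes. The homology region is in 15.4% of S-phase and 80% of mitotic windows, and E2F letters are in 46.2% of S-phase and 6.67% of mitotic windows.

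Pcna, the sliding clamp that tethers DNA polymerases to the template, had by far the most RNA of the S-phase genes. It stood at 102, 68.8 and 88.2 TPM in libraries 1, 2 and 3 (86.4 ± 16.7 TPM, SD, n = 3). That placed it above 93.4% of detected protein-coding genes and gave it 58.0% ± 1.44 (SD, n = 3) of the summed TPM of the 16 S-phase genes. Without Pcna the class ranged up to 10.5 TPM, the level of Mcm6, with a median of 4.17 TPM.

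The 6 subunits of the MCM helicase, which unwinds DNA as 1 ring with a single copy of each, did not have equal RNA levels. Mcm6 had 11.1, 9.39 and 11.0 TPM and was the highest of them in every library. Mcm3 followed in every library at 10.5, 6.58 and 8.05 TPM, and library 1 was its highest by TPM. Its coding transcript held 50.8%, 64.7% and 65.9% of that TPM, and transcripts that keep an intron held the rest. The TPM that ranks Mcm3 second counts both. In CPM, the share of counts, Mcm3 had 21.7, 22.9 and 21.6 in libraries 1, 2 and 3, so library 1 was not its highest there. Mcm2, Mcm4, Mcm5 and Mcm7 averaged 4.51 ± 0.249, 4.61 ± 0.924, 3.11 ± 0.748 and 2.86 ± 0.512 TPM (SD, n = 3), and the means of Mcm2 and Mcm4 and those of Mcm5 and Mcm7 differed by less than their SDs. The highest subunit was 3.47, 4.17 and 3.57 times the lowest in libraries 1, 2 and 3.

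The factors that load and start the helicase spread more widely. Cdt1, which loads MCM rings onto origins, was the fourth S-phase gene at 7.54, 5.05 and 6.47 TPM (6.35 ± 1.25, SD, n = 3). Gins2, a subunit of the GINS complex that activates the helicase, had 4.17 ± 0.877 TPM. Cdc6, the ATPase that works beside Cdt1, was the lowest S-phase gene at 1.02, 0.380 and 0.640 TPM, from 83, 76 and 98 counts. The loader pair therefore differed in RNA level in every library, with Cdt1 above Cdc6.

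The nucleotide supply genes were unequal too. Rrm1 and Rrm2 encode the large and small subunits of ribonucleotide reductase, and Rrm1 averaged 6.16 ± 1.69 TPM and Rrm2 2.38 ± 0.853 TPM (SD, n = 3), a ratio of 2.64 ± 0.242 within libraries. Tyms, thymidylate synthase, averaged 1.26 ± 0.465 TPM from 49 to 74 counts per library.

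E2f1, the transcription factor that activates replication genes, averaged 5.86 ± 1.13 TPM (SD, n = 3). The E-type cyclins, its known targets, which switch on Cdk2 at the entry to S phase, were near the floor of the class. Ccne1 had 0.740, 0.520 and 0.960 TPM, from 56, 58 and 86 counts, and Ccne2 had 0.760, 0.490 and 0.900 TPM, from 70, 83 and 105 counts. Both were under 1 TPM in each library, the only members of the 40 of which that is true, and their ratio was 1.03 ± 0.052 within libraries. Cdk2, their kinase partner, stood at 5.62 ± 0.875 TPM.

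Mki67, which encodes the Ki-67 protein that coats mitotic chromosomes, was the highest mitotic gene at 23.7, 11.3 and 26.7 TPM in libraries 1, 2 and 3, from 9422, 6971 and 12724 counts. Library 2 was the lowest. Cdk1, the kinase that drives mitosis, had 8.68, 6.72 and 13.7 TPM, and library 3 was its highest. Top2a, the topoisomerase that untangles sister chromatids, had 7.69, 5.67 and 9.41 TPM. Ube2c, the ubiquitin-conjugating enzyme of the anaphase-promoting complex, had 5.30, 2.24 and 4.78 TPM. Mki67 took 29.0% ± 3.04 (SD, n = 3) of the summed TPM of the 19 mitotic genes, and the median of the other 18 was 1.92 TPM.

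The B-type cyclins, partners of Cdk1, were nearly equal, with Ccnb1 at 1.88 ± 0.719 TPM, Ccnb2 at 2.03 ± 0.895 TPM and a ratio of 0.939 ± 0.073 within libraries. Ccna2, cyclin A, which acts from S phase into mitosis, was higher at 2.61 ± 0.884 TPM, and exceeded Ccnb1 by 1.42 ± 0.112 times within libraries (SD, n = 3).

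The mitotic kinases Aurka, Aurkb and Plk1 had similar levels, each below that of Cdk1. Aurka, the centrosomal Aurora kinase, averaged 1.96 ± 0.512 TPM, Aurkb, the Aurora kinase of the chromosomal passenger complex, 1.76 ± 0.643 TPM, and Plk1, Polo-like kinase, 1.64 ± 0.524 TPM (SD, n = 3). Tpx2, which activates Aurora A on the spindle, averaged 2.55 ± 0.818 TPM, and Birc5, survivin, a passenger complex subunit, 3.09 ± 1.10 TPM.

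The checkpoint kinases Bub1 and Bub1b averaged 1.45 ± 0.564 and 1.49 ± 0.745 TPM. Bub1 had 1.97, 0.850 and 1.52 TPM, above Bub1b in library 1 and below it in libraries 2 and 3. The coding transcript held 54.8%, 91.8% and 94.1% of Bub1 TPM in libraries 1, 2 and 3, and 100%, 92.4% and 72.0% of Bub1b TPM. By counts Bub1 was below Bub1b in every library, at 156, 159 and 229 against 178, 188 and 303. The spindle motors Kif11, Kif20a and Cenpe averaged 1.45 ± 0.440, 1.61 ± 0.543 and 1.96 ± 0.551 TPM (SD, n = 3). Kif11 had 1.34, 1.07 and 1.93 TPM, the same mean as Bub1. Cdc20, the activator of the anaphase-promoting complex, had 1.24, 0.820 and 1.66 TPM. The lowest was Cenpf, a kinetochore protein, at 1.21, 0.560 and 1.35 TPM. By TPM library 2 was the lowest for each of Kif11, Cdc20 and Cenpf, as it was for genes in general. By CPM Kif11 was lowest in library 1, at 7.84, 8.70 and 11.9 in libraries 1, 2 and 3.

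Cdkn1a, the gene of the Cdk inhibitor p21, had 463, 242 and 467 TPM in libraries 1, 2 and 3, from 33114, 25680 and 39517 counts (390.5 ± 129 TPM, SD, n = 3). It stood above 98.7% of detected protein-coding genes, and its TPM was 1.65, 1.31 and 1.69 times the sum of the other 39 cell cycle genes. Cdkn1b, the gene of the related inhibitor p27, had 14.0, 5.73 and 10.2 TPM, so Cdkn1a exceeded it 33.1, 42.2 and 45.8 times.

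Of the D-type cyclins, Ccnd1 was the highest at 11.5, 11.0 and 12.0 TPM. In CPM, the share of counts, it had 51.7, 67.6 and 56.0 in libraries 1, 2 and 3, so library 2 was its highest there. Ccnd3 had 7.53, 4.49 and 7.26 TPM. Ccnd2 had 1.32, 0.600 and 0.790 TPM, which made Ccnd1 8.73, 18.3 and 15.2 times as high. Cdkn1a exceeded Ccnd1 by 40.1, 22.0 and 38.9 times. Cdkn1b was above Ccnd1 in library 1 and below it in libraries 2 and 3, with ratios of 1.21, 0.521 and 0.849. The kinase partners Cdk4 and Cdk6 stood at 38.2 ± 17.3 and 20.4 ± 1.87 TPM (SD, n = 3), above every D-type cyclin by their means.

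Listed genes outside the 40 gave the wider setting. Among 37 other S-phase genes 28 reached 1 TPM in each library, and the highest were the clamp loader subunits Rfc2 at 18.5 ± 2.85 TPM and Rfc1 at 14.6 ± 3.48 TPM and the single-strand binding subunit Rpa1 at 12.0 ± 2.27 TPM. Among 35 other mitotic genes 18 did, led by Cenpa, the centromeric histone, at 30.9 ± 7.12 TPM, then Pttg1, securin, at 15.7 ± 3.64 TPM and Incenp, a passenger complex subunit, at 13.1 ± 3.10 TPM. The medians of these lists were 2.97 TPM for S-phase and 1.51 TPM for mitotic genes, in the same order as among the 40. Of 18 other cyclins, kinases and inhibitors 13 reached 1 TPM, with the inhibitor Cdkn1c at 18.3 ± 3.94 TPM after Cdk4 and Cdk6. The list of 23 E2F, retinoblastoma and DREAM regulators also held Trp53, Myc, Mdm2 and Ccng1, and 19 of the 23 did. Its highest were Mdm2 at 85.2 ± 9.57 TPM and Ccng1 at 46.5 ± 7.74 TPM, p53 targets like Cdkn1a and not such regulators. Rb1 followed at 19.5 ± 4.06 TPM.

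On the log2(TPM + 1) scale the S-phase median exceeded the mitotic median by 0.96, 0.99 and 0.65 in libraries 1, 2 and 3 (0.87 ± 0.19, SD, n = 3). The direction was the same in 3 of 3 libraries, and the smallest p that an exact two-sided sign permutation over 3 libraries can give is 0.25, so no test was made. The D-type cyclin and inhibitor median exceeded the S-phase median by 0.92 ± 0.29 and the mitotic median by 1.78 ± 0.24 on the same scale. The gap between S-phase and mitotic genes was smallest in library 3.

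Variation between the libraries was tested with edgeR on the rounded expected counts of 12231 genes, as departure from the spread expected of genes of like level. None of the 40 cell cycle genes varied at a Benjamini-Hochberg adjusted p of 0.05, against 1.66% of all tested genes (203). At an unadjusted p under 0.05, edgeR listed 2 of the 40 (5%), against 785 tested genes (6.42%). They were Cdkn1b, with an adjusted p of 0.164 by edgeR, and Mki67, with an adjusted p of 0.293 by edgeR. The same 0 of 40 came with DESeq2's size factors and with the counts of the second quantification. A missed threshold with 3 libraries does not show that a gene was equal in them.

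Although no single gene passed, the mitotic genes as a class differed between libraries in 1 direction, which is given here as a description with no test. In log2 CPM (a count's share of its library, scaled with edgeR's TMM factors), the median mitotic gene deviated from its own mean by -0.09, -0.24 and 0.35 in libraries 1, 2 and 3. The median S-phase gene deviated by -0.05, -0.03 and 0.02, and the median of all tested genes by 0.00 in each. Library 3 was the highest for 18 of 19 mitotic genes, the exception being Ube2c, against 32.0% of all tested genes. Library 2 was the lowest for 16 of 19, against 31.9% of all tested genes. Both held for 15 of 19 (78.9%), against 12.3% of all tested genes.

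**Figure D3:**
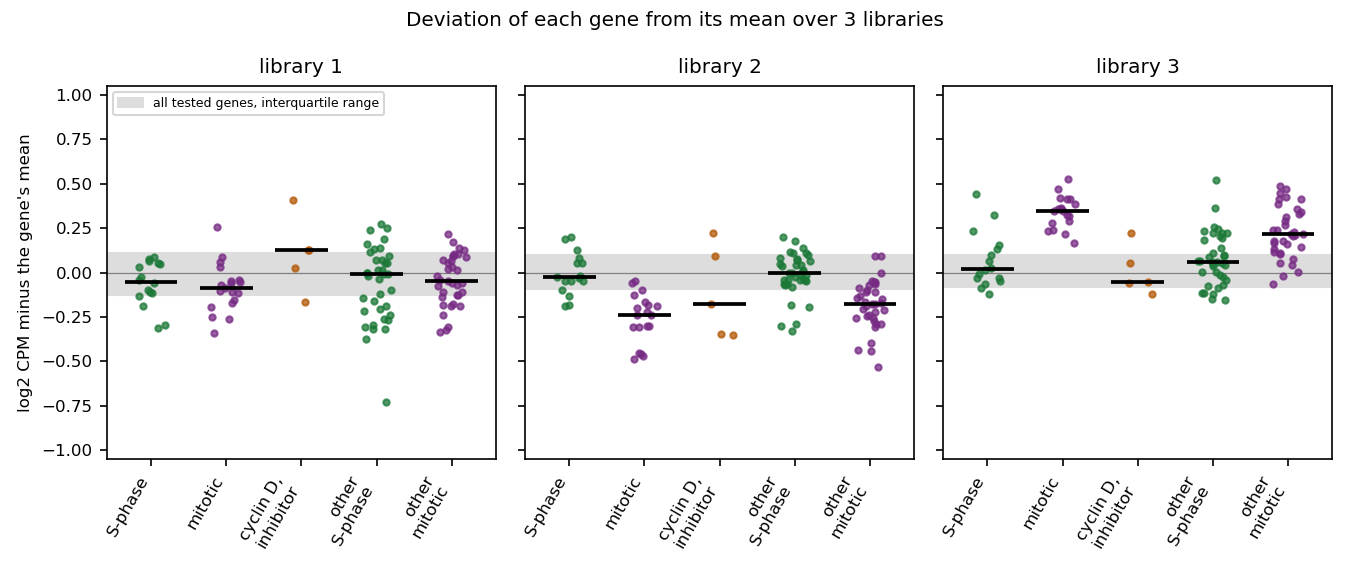
Deviation of each gene's log2 CPM from its mean over the 3 libraries, 1 panel per library and 1 point per gene, with class medians as bars and the interquartile range of all tested genes shaded. The mitotic points lie low in library 2 and high in library 3 (medians -0.24 and 0.35), while the S-phase medians stay near 0.

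Library 3 minus library 2 gave a median of 0.60 on the log2 CPM scale over the 19 mitotic genes, each above 0, from 0.34 for Cenpe to 0.98 for Ccnb2. Over the 16 S-phase genes it was 0.01, with 8 above 0, from -0.29 for Mcm2 to 0.58 for Rrm2. Over all tested genes it was 0.01, with 51.6% above 0. Library 3 was thus higher than library 2 for every mitotic gene and evenly split for S-phase genes. Library 3 minus library 1, which shares library 3 with it, gave a mitotic median of 0.42 with 18 of 19 above 0, and library 1 minus library 2 gave 0.13 with 16 of 19 above 0.

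The summed CPM of the mitotic genes were 434, 334 and 542 in libraries 1, 2 and 3, with exact 95% Poisson intervals, covering counting error only, of 427 to 441, 328 to 340 and 534 to 549. Without Mki67 the sums were 151, 140 and 199.5, so library 3 was 1.43 times library 2, against 1.62 times with it. The S-phase sums were 394, 392 and 389. Mitotic over S-phase sums came to 1.10, 0.852 and 1.39. Without Mki67 and Pcna, the leading gene of each class, the ratio was 0.670, 0.594 and 0.853. Gene by gene, the counting interval of library 3 lay wholly above that of library 2 for 18 of 19 mitotic and 2 of 16 S-phase genes. The share over all tested genes was not counted. These intervals leave out variation between libraries beyond counting, so the counts describe the 2 classes and test nothing.

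Ccnb2 had 114, 94 and 193 counts in libraries 1, 2 and 3, and Ccnb1 had 197, 147 and 281, so library 3 was highest and library 2 lowest for both B-type cyclins. Plk1 had 120, 158 and 222 counts and Cdk1 had 262, 325 and 439, so that library 1 was lowest for them. Kif11, with 261, 312 and 441 counts, was the only other mitotic gene lowest in library 1 once counts were scaled for library size. Rrm2, with 175, 213 and 330 counts, had the largest difference of library 3 minus library 2 among the S-phase genes. Cdkn1a was lowest in library 2 as well, at 716 CPM, against 995 and 1063 CPM in libraries 1 and 3. So were Cdkn1b, at 24.9 CPM against 42.2 and 30.4, and Ccnd3, at 13.7 CPM against 16.9 and 16.1. Ccnd1 and Ccnd2 were highest in library 2, at 67.6 and 6.05 CPM. The sum of the D-type cyclins and Cdkn1b, in which these opposite differences offset each other, was 117, 112 and 108 CPM.

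**Figure D4:**
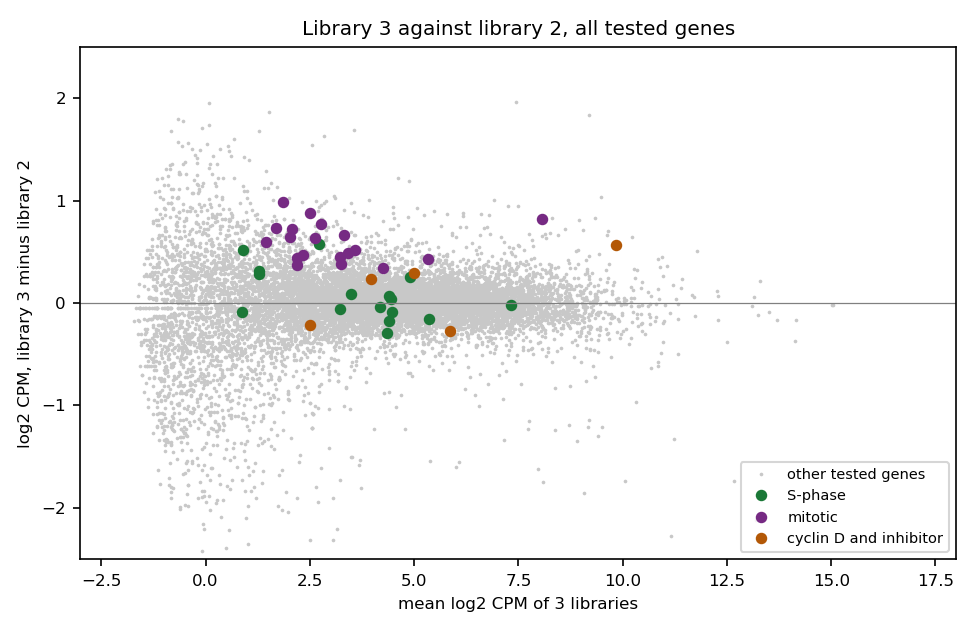
Difference in log2 CPM between library 3 and library 2 for each cell cycle gene, coloured by class, against its mean log2 CPM, with other tested genes in grey and 5 of them beyond the axes. All 19 mitotic genes lie above 0 (median 0.60), and the 16 S-phase genes scatter around 0 (median 0.01).

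The 35 other mitotic genes, which are not among the 40, differed in the same direction. Their list was chosen with earlier results of these data known, so it is no independent support for the pattern. Over the 35 genes the median difference of library 3 minus library 2 was 0.36 on the log2 CPM scale, from 0.03 to 0.96. The difference was above 0 for 35 of 35, against 51.6% of all tested genes. Library 3 was highest for 30 of the 35, against 32.0% of all tested genes. The 37 other S-phase genes had a median of 0.08 with 23 above 0, the tested other cyclins, kinases and inhibitors 0.03 with 9 of 16 above 0, and the E2F, retinoblastoma and DREAM regulators 0.05 with 14 of 23 above 0. Genes with both the homology region and CCAAT in their windows, whatever their function, had a median of 0.04 over 400 genes, 59.3% of them above 0. Outside the cell cycle lists the pair gave 0.03 over 378 genes, with 57.9% above 0. Genes with the homology region and no CCAAT had a similar median of 0.03 over 567 genes, with 57.5% above 0. For genes with none of the 3 motifs the values were 0.01 and 52.8%. In none of the 4 lists of genes outside the 40 did a gene vary by edgeR at an adjusted p of 0.05, and 2 genes, both mitotic, had an unadjusted p under 0.05.

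The libraries also differed in other RNA. All 5 tested nuclear noncoding RNAs (Malat1, Neat1, Xist, Firre and Kcnq1ot1) were highest in library 2 and varied by edgeR, with 0.243%, 0.583% and 0.136% of counts in libraries 1, 2 and 3. The 13 protein-coding genes of the mitochondrial genome took 0.978%, 0.631% and 0.289% of counts, with 11 of 12 tested genes highest in library 1. By edgeR 11 of the 12 varied (mt-Nd1, mt-Nd2, mt-Co1, mt-Atp8, mt-Atp6, mt-Co3, mt-Nd3, mt-Nd4, mt-Nd5, mt-Nd6 and mt-Cytb). The remaining gene, mt-Co2, was not tested and had 0, 665 and 236 counts in libraries 1, 2 and 3. The 9 tested markers of other cells had median deviations of 0.33, 0.21 and -0.64, lowest in library 3, and the macrophage markers 0.03, 0.01 and -0.05, and none of either list varied at an adjusted p of 0.05. The part of these RNAs in the mitotic pattern was not tested.

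Transcript tables show which annotated product carried each gene. The most abundant transcript was the same in both deposited quantifications for 40 of 40 genes and was protein coding for 39. Pcna, Mcm2, Mki67, Cdkn1a and Ccnd1 each rested on 1 coding transcript, with 99.7%, 99.9%, 96.9%, 98.8% and 98.8% of the gene's TPM. The exception was Tyms, where Tyms-205, a transcript annotated for nonsense-mediated decay, held 42.7% ± 24.4 (SD, n = 3) on 49 to 74 counts for the whole gene.

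Retained-intron transcripts, which keep an intron and are not annotated as coding, were listed for 29 of the 40 genes at a median share of 1.24%, and reached 10% in 5. Cdk1 had 48.1% ± 7.04 of its TPM in them and 44.4% in the second quantification, chiefly in Cdk1-204, which is 475 bases long. Its coding transcript Cdk1-202 held 56.7%, 49.6% and 42.4% in libraries 1, 2 and 3, so about equal parts of the gene's TPM were coding and not coding. Mcm3 had 39.5% ± 8.42 in the first and 23.5% in the second quantification. Gins2 had 41.2% ± 27.0, with 70.9% in library 1 as the highest, a spread too wide to place it. Bub1b and Cdc6 had 11.9% ± 14.5 and 11.2% ± 19.4, with SDs above their means. Short retained-intron models weigh heavily in TPM because TPM divides by length, so the TPM of Cdk1 and Mcm3 counts such short models together with the coding one. Top2a had 28.4% ± 4.61 in its processed transcripts, which are not annotated as coding, chiefly Top2a-203, and 71.6% in its coding one. Bub1 had 18.4% ± 19.7 in its processed transcripts, with 41.1% in library 1 as the highest.

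The expected counts were whole numbers, within 0.005, in every library for 29 members, and not for Mcm7, Pcna, Gins2, Ccne2, Ccna2, Ccnb1, Kif20a, Ccnd1, Ccnd2, Ccnd3 and Cdkn1a, and why these were fractional was not tested. Exons of 13 members overlap those of another gene, as Cdc20 does with Elovl1, Ube2c with Tnnc2 and Ccna2 with Exosc9. These other genes averaged 42.7, 0.0133 and 9.26 TPM, above Cdc20 and Ccna2 but far below Ube2c. The strand setting of the counting is not given in the sources used here. Levels of members that overlap an expressed gene are uncertain to that extent.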

How the data were processed

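Cytosolic total RNA, depleted of ribosomal RNA, from 3 libraries of 1 group was quantified by the authors against mm10 with GENCODE M21, per the notes deposited with each library. The deposited gene tables give expected counts and TPM per gene, and the deposited transcript tables give the same per transcript, with a second quantification made by the authors from the reads. The bounds that the authors deposited beside TPM, whose scale is not stated, are not used here. The aligner, the quantifier, their versions and the strand setting are named in none of the sources used here. Of 81881 lines in each gene table, 55536 are annotated genes, and the others were left out of all totals and tests.

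Symbols were mapped through the annotation fields of the second tables. Levels are in TPM, and class differences use log2(TPM + 1). For variation between libraries, expected counts were rounded to whole numbers, filtered with filterByExpr and scaled with TMM. An intercept-only negative binomial model with trended dispersion was fitted to 12231 genes in edgeR 4.0.16 (R 4.3.3), and the residual deviance of each gene was tested by chi-square, with Benjamini-Hochberg adjustment over all of them. This script was tested on simulated data. CPM uses TMM library sizes and a prior count of 0.5 on the log2 scale. Alternatives used DESeq2 1.42.0 size factors, no count filter, a common dispersion, each library left out, the second quantification, other TPM thresholds and another pseudocount. Other tables and figures were made with Python 3.11.15, pandas 2.3.3, scipy 1.17.1 and matplotlib 3.10.9.

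Named were all 40 cell cycle genes: values in each library for genes that varied, for the 4 highest and 3 lowest of each class by mean TPM and for all 5 cyclin D and inhibitor genes, and means or ranges for the others. Bub1 and Kif11 tied for the last place among the 3 lowest mitotic genes, and both are given. Rrm2, Ccnb1, Ccnb2 and Plk1 were given by library as well, chosen after their values were seen. Of the other lists the 3 highest genes and those that varied are named, and Cdk2, also chosen afterwards. The members, classes and lists were chosen with earlier results of these data known. A count of 0 allows 3 counts, or 0.0816 to 0.0908 CPM. Nothing says that the 3 samples came from separate cultures, so the p-values rest on a spread that may be technical only. A planned comparison of protein sequences was not run.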

Additional observations from a re-analysis of the deposited data

How the results depend on the processing

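No gene of the 40 varied between libraries at an adjusted p of 0.05 under any of the 8 settings of edgeR run, which included DESeq2's size factors, no count filter, a common dispersion, the counts of the second quantification and each library left out (0 to 0). At an unadjusted p under 0.05, edgeR listed 2 of the 40 with all libraries, against 785 of 12231 tested genes. It listed 6 with a common dispersion, against 1007 of 12231, 7 without library 1, against 657 of 12511, 0 without library 2, against 624 of 12333, and 2 without library 3, against 625 of 12419. Genes called among all tested were 203 with all libraries and 132, 91 and 89 without libraries 1, 2 and 3, where fewer samples were fitted.

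The order of the class medians was the same under each quantification and rescaling, but the values moved. The medians over genes of the 3-library mean were 4.34 TPM for S-phase, 1.96 TPM for mitotic and 9.97 TPM for cyclin D and inhibitor genes. In the second quantification they were 1.33, 0.681 and 3.50 TPM, and with TPM rescaled to protein-coding genes 13.2, 5.81 and 29.1 TPM. The level of the 40 genes was 2.92 times lower in the second quantification by the median, against 2.83 times for 9123 detected protein-coding genes. With each library left out the class medians ranged from 3.94 to 4.60, from 1.59 to 2.27 and from 7.97 to 11.8 TPM. S-phase minus mitotic, 0.87 on the log2(TPM + 1) scale, was 0.48 in the second quantification, 1.07 with protein-coding genes only, 1.15 with a pseudocount of 0.1 and 0.80 to 0.98 with each library left out. The 31 genes at 1 TPM in each library became 19 at a threshold of 2 TPM and 15 in the second quantification. The mitotic difference of library 3 minus library 2 was 0.60 with DESeq2's size factors and 0.58 with the second counts, an alternative chosen after seeing the data.

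No paired analysis was possible because the series holds 1 group. With 3 libraries and no second condition, levels are described and not compared with another state. Genes with about 100 counts or fewer in a library, such as Tyms, Cdc6, Ccne1 and Ccne2, carry the widest counting error. Among the mitotic genes they include Ccnb2, Birc5 and Cdc20, with 94, 93 and 82 counts in library 2. The comparison of protein sequences was not run.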
